A study of Mus musculus with 6 samples.

Results

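The proteasome genes of sorted CD4 T cells were compared 14 h after an antibody carrying the BDC antigen, or PBS, had been given to mice. Members were all genes whose symbol starts with Psma, Psmb, Psmc, Psmd, Psme, Psmf or Psmg followed by a digit. The rule found 50 members among the 19938 genes measured, 5 of them immunoproteasome genes (Psmb8, Psmb9, Psmb10, Psme1 and Psme2) and 45 others. All 50 were tested, as no filter on dim genes was used. Each was read on the probe set that named only that gene and had the highest mean over the 6 arrays. Psme2b had only a probe set that it shares with Psme2 and was not counted. Psmc3ip and Psme3ip1 fit the spelling of the rule but encode partner proteins outside the particle. They are included in the counts and medians over the 50 and the 45, and their values are given apart from the subunits.

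The cells were BDC2.5 T cells, which carry a receptor from a diabetogenic clone, transferred into female NOD mice aged 7 weeks. They were recovered from spleen as Thy1.1+CD4+ cells after magnetic depletion of other cells. There were 3 groups of 2 arrays: mice given 100 ng of anti-DCIR2-BDC, mice given 100 ng of anti-DEC205-BDC, and mice given PBS. DCIR2 and DEC205 are receptors of different dendritic cell subsets, and in constructs of this kind the BDC suffix stands for a peptide that the BDC2.5 receptor recognises. All 3 groups hold BDC2.5 cells in NOD hosts, whose own T cells and antigen-presenting cells remained. No group received an antibody without the antigen, so effects of antigen and antibody cannot be told apart. The labels call the arrays biological duplicates and do not give the number of mice behind each. The p-values therefore cover only the spread among these samples.

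Values are log2 expression after robust multi-array averaging (RMA) by the authors, so a difference of 1 is a doubling. RMA equalises the arrays, which hides any shift common to the whole transcriptome. Array medians over all genes lay between 5.56 and 5.66, and arrays of 1 group correlated at 0.974 to 0.982 over all probe sets. CD4 T cell markers were bright, with a mean level of 9.58 and 9.64 in anti-DCIR2-BDC arrays, 10.084 and 10.003 in anti-DEC205-BDC arrays and 10.39 and 10.46 in PBS arrays. Of 9 measured, 6 fell after anti-DCIR2-BDC (Cd3d, Cd3e, Cd3g, Cd4, Cd28 and Trat1), where 7.82% of all genes fell. Only Trat1 fell after anti-DEC205-BDC, where 3.53% of all genes did. The part of these falls in the results below was not tested. The 8 dendritic cell markers averaged 4.79 to 4.85, 4.85 to 4.86 and 4.78 to 4.86 in the same order, the 7 B cell markers 4.65 to 4.81, 4.70 to 4.85 and 4.83 to 4.95, and none of either list passed the test. Among 6 natural killer cell markers Eomes rose and Klrd1 and Prf1 fell in both comparisons with PBS, and among 6 macrophage markers Cd14, at 3.71 to 4.98 over all arrays, fell after anti-DEC205-BDC.

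The proteasome degrades proteins tagged with ubiquitin. Its 20S core is a barrel of alpha rings, which gate the entry, and beta rings, which hold the proteolytic sites. The 19S regulatory particle caps the core, binds and removes ubiquitin, and unfolds and feeds in substrates with a ring of ATPases. Interferons induce Psmb8, Psmb9 and Psmb10, which replace Psmb5, Psmb6 and Psmb7 as catalytic subunits, and Psme1 and Psme2, which form the PA28 activator. The exchange favours peptides that bind MHC class I, and lymphocytes hold immunoproteasomes at rest. Dividing and growing T cells make much new protein and are known to raise proteasome levels.

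Most members were higher in both antibody groups than in PBS mice, while the 3 catalytic subunits of the immunoproteasome lay lower. Of these 3, only Psmb9 passed the test. After anti-DCIR2-BDC 36 of 50 members rose and 1 fell, where 10.1% of all genes rose and 7.82% fell. After anti-DEC205-BDC 26 rose and 1 fell, where 5.32% of all genes rose and 3.53% fell. Most members were bright, and bright genes passed more often. Without the dimmest 50% of genes, 9969 genes and 48 members were left. Of these genes 2126 rose after anti-DCIR2-BDC and 1235 after anti-DEC205-BDC, and of the 48 members 37 and 31 rose. Both comparisons share the PBS arrays. The test was limma's moderated test over all 6 arrays, with p-values adjusted over all genes and a threshold of 0.05. In bulk RNA, fewer cells of a type and less RNA per cell cannot be told apart.

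The 45 members outside the immunoproteasome had a median log2 change of 1.12 after anti-DCIR2-BDC and 0.85 after anti-DEC205-BDC, against medians of all genes of -0.05 and -0.03. Of them 35 rose after anti-DCIR2-BDC and 25 after anti-DEC205-BDC, and 0 fell in either comparison. Without Psmc3ip and Psme3ip1, 34 and 24 of 43 rose, with medians of 1.18 and 0.85. Log2 changes of the 45 ran from -0.09 to 1.79 and from -0.22 to 1.40. The 5 immunoproteasome members had medians of -0.53 and -0.32, with 1 riser (Psme2) and 1 faller (Psmb9) in each comparison. These medians became -0.35 without anti-DCIR2-BDC replicate 2 and -0.14 without anti-DEC205-BDC replicate 1. Of the 50 members 45 had a mean above PBS after anti-DCIR2-BDC, where 42.5% of all genes did, and 44 after anti-DEC205-BDC, where 45.9% did. In 41 of the 50 members both anti-DCIR2-BDC arrays lay above both PBS arrays, where 23.4% of all genes did, and in 3 they lay below, where 31.9% did. For anti-DEC205-BDC these counts were 40, where 22.2% of all genes did, and 4, where 26.5% did. Leaving out anti-DEC205-BDC replicate 2 reduced the 26 that rose to 15.

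**Figure D1:**
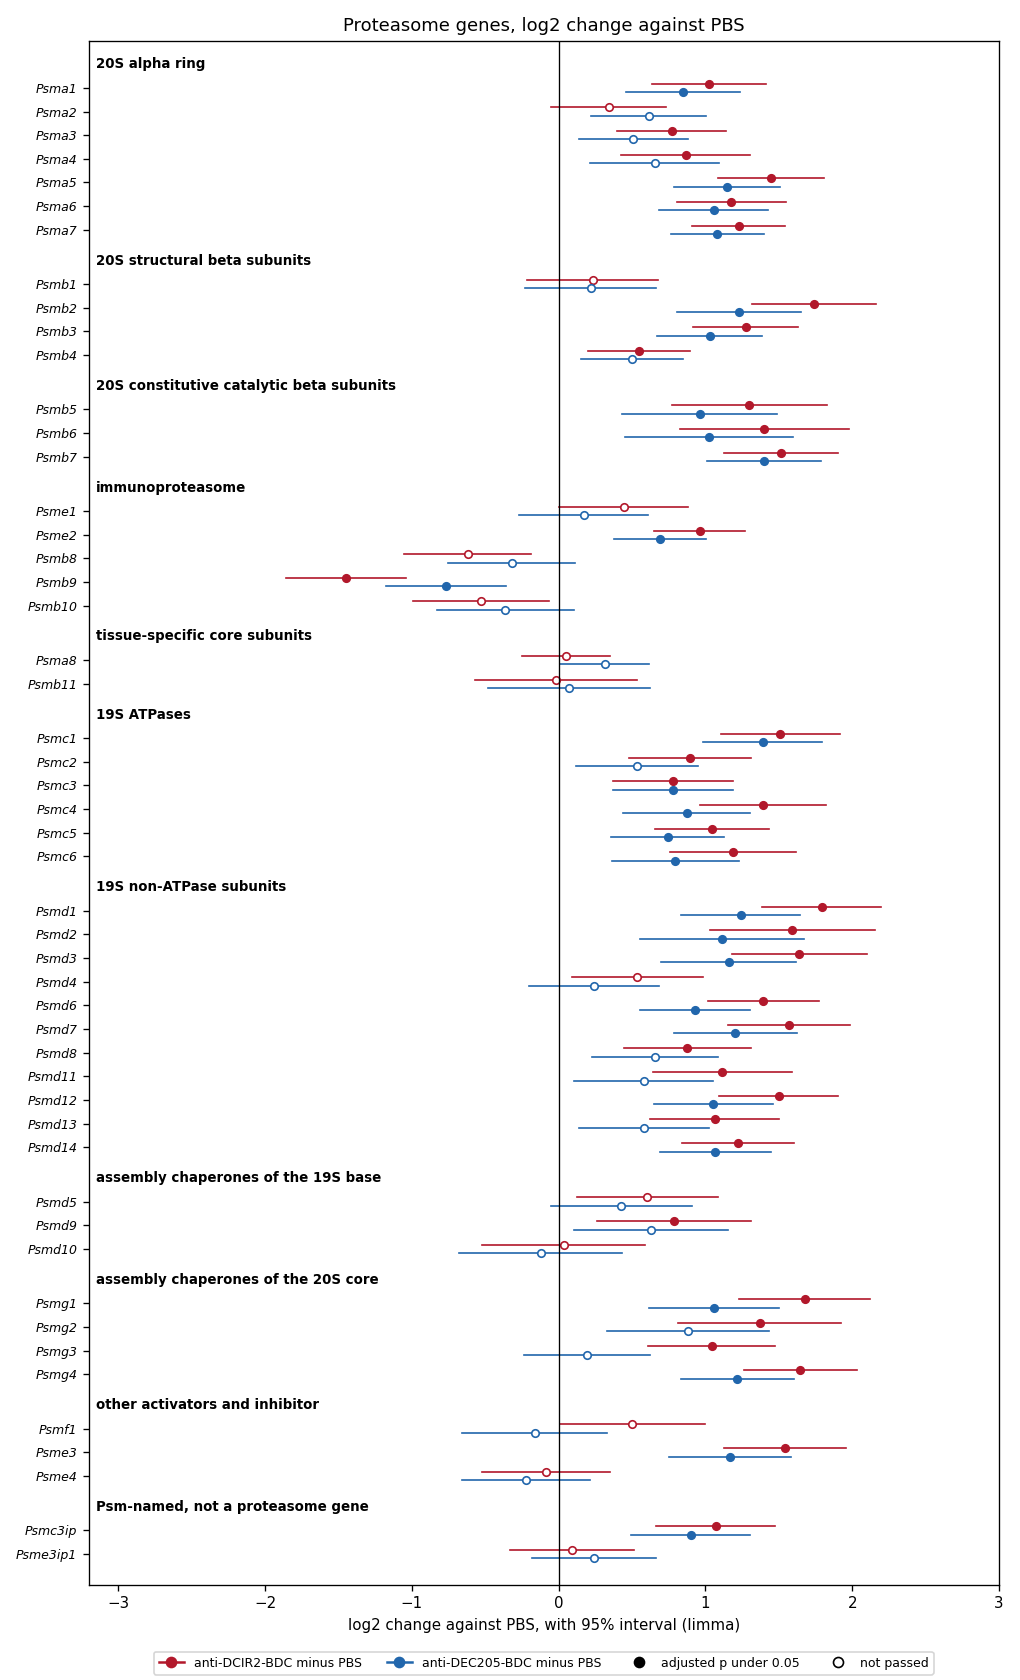
Log2 change against PBS (x axis) of the 50 members, grouped by role, after anti-DCIR2-BDC (red, upper of each pair) and anti-DEC205-BDC (blue, lower), with 95% limma intervals from 2 arrays a group; filled points passed an adjusted p of 0.05. Points of the core, cap and most chaperones lie right of 0, and Psmb8, Psmb9 and Psmb10 lie left of it.

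The catalytic subunits were read as pairs of the interferon-induced and the constitutive form. Psmb9, the induced form at the caspase-like site, had 8.71 and 8.44 in anti-DCIR2-BDC arrays, 9.07 and 9.44 in anti-DEC205-BDC arrays and 10.03 and 10.01 in PBS arrays. Its groups did not overlap, and the anti-DCIR2-BDC arrays were the lowest. It was 2.73-fold lower after anti-DCIR2-BDC (log2 change -1.45 ± 0.18 SE, adjusted p = 0.00041) and 1.70-fold lower after anti-DEC205-BDC (-0.77 ± 0.18, adjusted p = 0.028). The second call was lost without PBS replicate 1, PBS replicate 2 or anti-DEC205-BDC replicate 1, with an adjusted p of up to 0.177. Psmb6, its constitutive counterpart, had 9.80 and 10.003 in anti-DCIR2-BDC arrays, 9.23 and 9.82 in anti-DEC205-BDC arrays and 8.15 and 8.85 in PBS arrays. Psmb6 thus lay on the other side of PBS, with no overlap, and rose by 1.40 ± 0.26 (adjusted p = 0.0035) and 1.03 ± 0.26 (adjusted p = 0.034). The anti-DEC205-BDC call for Psmb6 held in 11 of 16 alternative analyses and was lost without PBS replicate 1, anti-DEC205-BDC replicate 2 or either anti-DCIR2-BDC array, with an adjusted p of up to 0.21.

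Psmb8, the induced form at the chymotrypsin-like site, had 8.16 and 8.38 after anti-DCIR2-BDC, 8.39 and 8.75 after anti-DEC205-BDC and 8.84 and 8.94 in PBS arrays. No array of either antibody group reached a PBS array, as in 31.9% of all genes after anti-DCIR2-BDC and 26.5% after anti-DEC205-BDC. The difference was -0.62 ± 0.20 (adjusted p = 0.053) for anti-DCIR2-BDC, which missed the threshold and passed it in 11 of 16 alternatives, and -0.32 ± 0.20 (adjusted p = 0.42) for anti-DEC205-BDC. Psmb5, its constitutive counterpart and the site that bortezomib binds, had 9.50 and 9.96, 9.08 and 9.71, and 8.55 and 8.32 in the same order of groups. It rose by 1.30 ± 0.24 (adjusted p = 0.0033) and 0.96 ± 0.24 (adjusted p = 0.032). Leaving out either PBS array or anti-DEC205-BDC replicate 2 ended the second call, and leaving out anti-DCIR2-BDC replicate 2 the first (adjusted p = 0.052).

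Psmb10, the induced form at the trypsin-like site, had 8.26 and 7.90 after anti-DCIR2-BDC, 8.14 and 8.35 after anti-DEC205-BDC and 8.44 and 8.78 in PBS arrays. All antibody arrays lay below both PBS arrays, yet neither difference passed, at -0.53 ± 0.21 (adjusted p = 0.12) and -0.36 ± 0.21 (adjusted p = 0.38). Psmb7, its constitutive counterpart, had 10.07 and 10.39, 10.15 and 10.08, and 8.56 and 8.87. It rose 2.85-fold after anti-DCIR2-BDC (1.51 ± 0.17, adjusted p = 0.00024) and 2.64-fold after anti-DEC205-BDC (1.40 ± 0.17, adjusted p = 0.0014), the largest rise of any member in the second comparison. On all 4 antibody arrays the induced forms lay below PBS and the constitutive forms above it. The induced minus constitutive difference within an array was therefore bound to be lower there than on both PBS arrays in all 3 pairs. For Psmb9 minus Psmb6 it was -1.09 and -1.56 after anti-DCIR2-BDC, -0.16 and -0.38 after anti-DEC205-BDC and 1.89 and 1.16 in PBS arrays. Since different probe sets bind with different strength, these differences show an unequal change and not which form was more abundant.

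**Figure D2:**
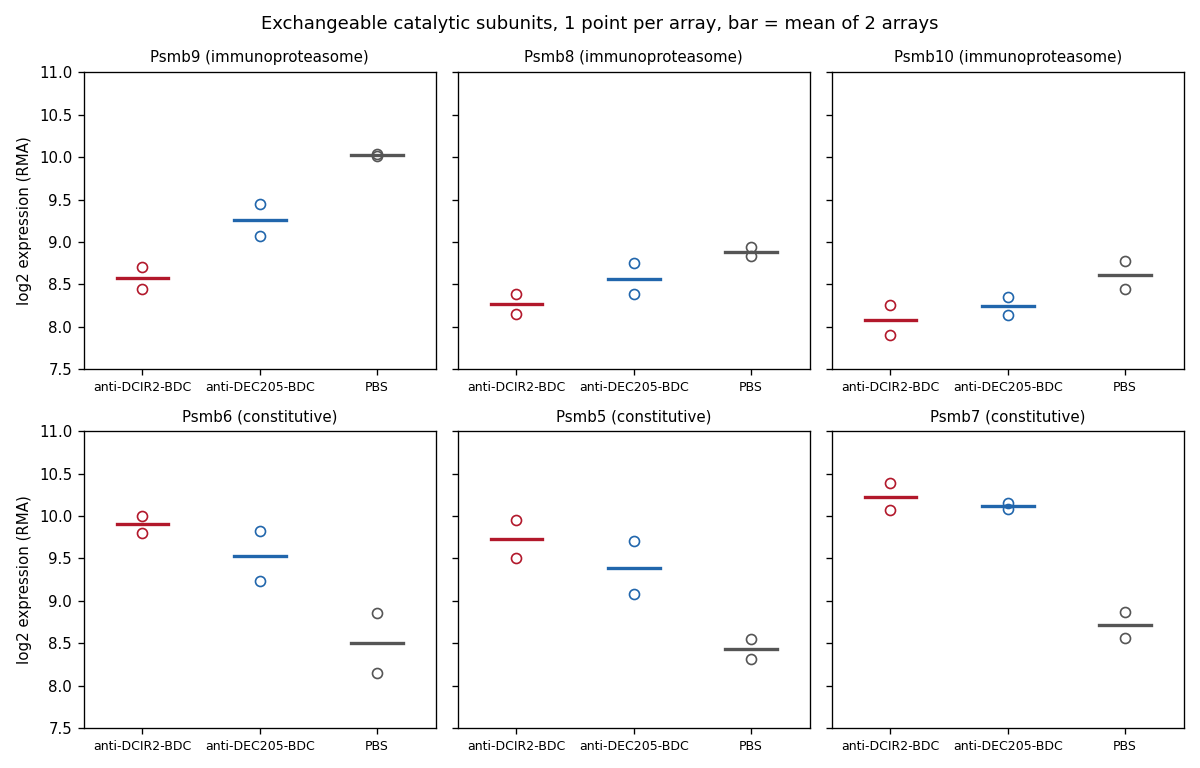
Log2 expression (y axis) on each array (open points, 2 a group) with group means (bars) for the 3 induced catalytic subunits (top) above their constitutive counterparts (bottom). Within each panel the antibody arrays lie below PBS at the top and above PBS at the bottom; levels are not compared between panels, which show different probe sets.

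The upstream sequences of 4 of these genes, and of 2 members with large rises, Psmd1 and Psmg1, are shown because the members of each pair stood on opposite sides of PBS. They are the 250 bases before each start on the gene's strand, from RefSeq on GRCm38.p6. Capitals mark matches on either strand to 3 of the motifs searched: TGANNNNGC, the core of the antioxidant response element that Nfe2l1 and Nfe2l2 bind, CCAAT, bound by NF-Y, and TTCNNNGAA, the gamma-activated site of STAT factors. The regions are Psmb9 at chr17:34187331-34187580 (minus strand), Psmb8 at chr17:34197945-34198194 (plus), Psmb6 at chr11:70525107-70525356 (plus), Psmb5 at chr14:54617996-54618245 (minus), Psmd1 at chr1:86064369-86064618 (plus) and Psmg1 at chr16:95990961-95991210 (minus).
Psmb9: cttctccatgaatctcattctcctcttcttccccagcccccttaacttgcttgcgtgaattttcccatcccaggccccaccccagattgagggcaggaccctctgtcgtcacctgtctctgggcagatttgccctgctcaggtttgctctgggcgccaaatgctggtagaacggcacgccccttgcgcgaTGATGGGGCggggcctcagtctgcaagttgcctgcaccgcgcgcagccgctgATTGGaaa
Psmb6: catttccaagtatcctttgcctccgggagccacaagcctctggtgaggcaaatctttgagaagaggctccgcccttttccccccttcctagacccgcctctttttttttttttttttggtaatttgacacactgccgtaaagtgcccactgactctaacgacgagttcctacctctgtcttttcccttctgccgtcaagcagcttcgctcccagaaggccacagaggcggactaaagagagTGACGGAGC
Psmb8: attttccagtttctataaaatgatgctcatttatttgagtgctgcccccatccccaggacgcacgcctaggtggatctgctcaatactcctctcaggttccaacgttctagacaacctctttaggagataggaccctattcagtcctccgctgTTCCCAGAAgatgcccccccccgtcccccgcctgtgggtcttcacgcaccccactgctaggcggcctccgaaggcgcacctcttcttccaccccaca
Psmb5: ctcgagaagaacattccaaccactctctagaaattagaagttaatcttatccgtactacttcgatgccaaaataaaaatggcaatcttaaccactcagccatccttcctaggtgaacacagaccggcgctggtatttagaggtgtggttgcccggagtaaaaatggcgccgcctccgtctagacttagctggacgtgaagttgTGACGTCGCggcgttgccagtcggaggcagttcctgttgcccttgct
Psmd1: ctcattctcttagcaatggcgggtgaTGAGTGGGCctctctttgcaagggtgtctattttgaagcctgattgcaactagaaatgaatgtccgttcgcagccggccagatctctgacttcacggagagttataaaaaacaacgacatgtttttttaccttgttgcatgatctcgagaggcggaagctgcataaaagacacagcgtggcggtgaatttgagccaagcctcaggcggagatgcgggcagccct
Psmg1: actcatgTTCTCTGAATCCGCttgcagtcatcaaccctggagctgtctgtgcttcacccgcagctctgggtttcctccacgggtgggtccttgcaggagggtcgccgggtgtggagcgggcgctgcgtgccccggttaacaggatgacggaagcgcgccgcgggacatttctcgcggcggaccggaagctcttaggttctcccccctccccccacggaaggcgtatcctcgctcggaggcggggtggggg

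Psmb9 held a TGANNNNGC match 60 to 52 bases before its start and a CCAAT box, read as ATTGG, 8 to 4 bases before it. Psmb8 held a TTCNNNGAA match 97 to 89 bases before its start. Psmb6 and Psmb5 held TGANNNNGC matches 9 to 1 and 47 to 39 bases before their starts, and Psmd1 one 224 to 216 bases before its start. In Psmg1 a TTCNNNGAA match and a TGANNNNGC match overlap. TGANNNNGC is short and common: 18 of the 42 members with a sequence (42.9%) held it, against 38.9% of 17492 coding genes. CCAAT was in 38.1% of members and 39.5% of coding genes, CACGTG (the E box) in 11.9% and 7.61%, GAAANNGAAA (the interferon-stimulated response element) in 7.14% and 3.48%, and TTCNNNGAA in 4.76% and 7.65%. Psmb9 lies head to head with Tap1, which encodes a subunit of the peptide transporter for MHC class I, with 226 bases between their starts.

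PA28, the activator that opens the core without ATP, did not move as the induced catalytic subunits did. Psme2, its beta subunit, had 10.45 and 10.32 after anti-DCIR2-BDC, 10.06 and 10.16 after anti-DEC205-BDC and 9.44 and 9.41 in PBS arrays. Its groups did not overlap, and it rose by 0.96 ± 0.14 (adjusted p = 0.00092) and 0.69 ± 0.14 (adjusted p = 0.013), the second call being lost without any 1 of the PBS or anti-DEC205-BDC arrays (adjusted p up to 0.0914). The probe set shared by Psme2 and its copy Psme2b differed from PBS by -0.09 and -0.02 with overlapping arrays, so the rise rests on the probe set that names Psme2 alone. Psme1, the alpha subunit, had 10.01 and 9.79, 9.44 and 9.82, and 9.25 and 9.67 in the same order of groups. Its differences of 0.44 ± 0.20 (adjusted p = 0.17) and 0.17 ± 0.20 (adjusted p = 0.71) did not pass.

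For the role lists that follow, 10.1% of all genes rose after anti-DCIR2-BDC and 5.32% after anti-DEC205-BDC. Of the 7 alpha ring genes 6 rose after anti-DCIR2-BDC and 4 after anti-DEC205-BDC, with median changes of 1.02 and 0.85. Psma5 changed most, at 10.18 and 10.51 after anti-DCIR2-BDC, 10.02 and 10.07 after anti-DEC205-BDC and 8.96 and 8.83 in PBS arrays. It was 2.73-fold and 2.21-fold higher than in PBS arrays (adjusted p = 0.0002 and 0.0024). Psma2 was the exception after anti-DCIR2-BDC, at 0.34 ± 0.18 (adjusted p = 0.25), and Psma3 had the smallest difference after anti-DEC205-BDC, at 0.51 ± 0.17 (adjusted p = 0.098). Psma2 arrays stood at 8.94 and 9.17, 9.45 and 9.20, and 8.72 and 8.69, so here the anti-DEC205-BDC arrays were the highest. The testis form Psma8 had 4.81 and 4.68, 5.06 and 4.96, and 4.63 and 4.77, and the thymus form Psmb11 stood at 4.57 to 5.45 over all 6 arrays. Neither passed a test, and both lay below the array medians.

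Among the 4 structural beta subunits Psmb2 and Psmb3 rose in both comparisons. Psmb2 had 10.59 and 10.85 after anti-DCIR2-BDC, 10.04 and 10.39 after anti-DEC205-BDC and 8.77 and 9.19 in PBS arrays. The groups did not overlap, and Psmb2 rose by 1.74 ± 0.19 (adjusted p = 0.00019) and 1.23 ± 0.19 (adjusted p = 0.0036). Psmb1 had the smallest differences, at 0.23 ± 0.20 (adjusted p = 0.53) and 0.22 ± 0.20 (adjusted p = 0.625), with arrays from 8.04 to 8.60. For Psmb4 the differences were 0.55 ± 0.16 (adjusted p = 0.035) and 0.50 ± 0.16 (adjusted p = 0.084), and the antibodies differed from each other by 0.05 (95% interval -0.30 to 0.40).

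All 6 ATPases of the 19S base, which unfold substrates, rose after anti-DCIR2-BDC, and 5 rose after anti-DEC205-BDC. Psmc1 had 9.64 and 9.64 after anti-DCIR2-BDC, 9.44 and 9.60 after anti-DEC205-BDC and 7.94 and 8.32 in PBS arrays. These arrays were well apart from PBS, and Psmc1 rose by 1.51 ± 0.18 (adjusted p = 0.0003) and 1.39 ± 0.18 (adjusted p = 0.0017). Psmc3 changed least after anti-DCIR2-BDC, by 0.78 ± 0.18 (adjusted p = 0.013), and by as much, 0.78 ± 0.18, after anti-DEC205-BDC (adjusted p = 0.026). Psmc2 was the ATPase that did not pass after anti-DEC205-BDC, at 0.53 ± 0.19 (adjusted p = 0.12).

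Of the 11 non-ATPase subunits of the 19S particle 10 rose after anti-DCIR2-BDC and 7 after anti-DEC205-BDC. Psmd1, the scaffold that docks ubiquitin receptors and shuttles, had 9.10 and 9.23 after anti-DCIR2-BDC, 8.49 and 8.73 after anti-DEC205-BDC and 7.33 and 7.42 in PBS arrays. The 3 groups formed separate steps, with anti-DCIR2-BDC the highest, and Psmd1 rose 3.46-fold (1.79 ± 0.18, adjusted p = 0.00013) and 2.36-fold (1.24 ± 0.18, adjusted p = 0.0029). The first is the largest rise of any member. Between the antibodies the Psmd1 difference, 0.55 ± 0.18, did not pass (adjusted p = 0.37). Psmd14, the deubiquitinase that removes ubiquitin chains at the lid, had 9.57 and 9.71, 9.62 and 9.35, and 8.38 and 8.46, and rose by 1.22 ± 0.17 (adjusted p = 0.00069) and 1.07 ± 0.17 (adjusted p = 0.0042). The ubiquitin receptor Psmd4 had the smallest differences, with 0.54 ± 0.20 (adjusted p = 0.1) and 0.24 ± 0.20 (adjusted p = 0.58), and its anti-DEC205-BDC arrays, 8.33 and 8.82, overlapped PBS at 8.31 and 8.35. Psmd8, Psmd11 and Psmd13 passed after anti-DCIR2-BDC (0.88, 1.12 and 1.06) and missed the threshold after anti-DEC205-BDC (0.66, 0.58 and 0.58).

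The 4 chaperones that assemble the 20S core all rose after anti-DCIR2-BDC, and Psmg1 and Psmg4 rose after anti-DEC205-BDC. Psmg1, which with Psmg2 guides the alpha ring, had 8.75 and 8.74 after anti-DCIR2-BDC, 7.91 and 8.34 after anti-DEC205-BDC and 7.07 and 7.07 in PBS arrays. Its groups did not overlap, and it rose by 1.68 ± 0.20 (adjusted p = 0.00029) and 1.06 ± 0.20 (adjusted p = 0.0093). Psmg2 had 7.94 and 8.70, 7.75 and 7.90, and 7.03 and 6.87, and its differences were 1.37 ± 0.25 (adjusted p = 0.0032) and 0.88 ± 0.25 (adjusted p = 0.056). Psmg4, which pairs with Psmg3, had 9.02 and 9.10, 8.66 and 8.61, and 7.39 and 7.44, and rose by 1.65 ± 0.17 (adjusted p = 0.00015) and 1.22 ± 0.17 (adjusted p = 0.0025).

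Psmg3 was higher mainly on the anti-DCIR2-BDC arrays, with 7.28 and 7.29 there, 6.24 and 6.64 after anti-DEC205-BDC and 6.20 and 6.29 in PBS arrays. It rose 2.06-fold after anti-DCIR2-BDC (1.04 ± 0.19, adjusted p = 0.0037), and its anti-DEC205-BDC arrays overlapped PBS (0.19 ± 0.19, adjusted p = 0.66). Of the chaperones of the 19S base, which bind the ATPases until the cap is complete, Psmd9 rose after anti-DCIR2-BDC (0.78 ± 0.24, adjusted p = 0.043). Psmd10 had the smallest differences, at 0.03 ± 0.25 (adjusted p = 0.96) and -0.12 ± 0.25 (adjusted p = 0.86).

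Among the remaining activators and the inhibitor, Psme3, which forms the nuclear PA28 gamma ring, had 9.98 and 10.20 after anti-DCIR2-BDC, 9.54 and 9.90 after anti-DEC205-BDC and 8.40 and 8.69 in PBS arrays. It rose 2.92-fold (1.54 ± 0.19, adjusted p = 0.00031) and 2.25-fold (1.17 ± 0.19, adjusted p = 0.00425), with no overlap. Psme4, the PA200 activator, had 7.41 and 7.72, 7.51 and 7.35, and 7.61 and 7.69, and differed from PBS by -0.09 ± 0.20 (adjusted p = 0.84) and -0.22 ± 0.20 (adjusted p = 0.6). Psmf1, which encodes the inhibitor PI31, had 7.45 and 7.81, 6.92 and 7.01, and 7.36 and 6.89. Its differences of 0.50 ± 0.22 (adjusted p = 0.17) and -0.16 ± 0.22 (adjusted p = 0.76) did not pass, and the second became 0.070 without PBS replicate 1. Of the genes outside the particle, Psmc3ip, a recombination factor, rose by 1.07 ± 0.18 (adjusted p = 0.0022) and 0.90 ± 0.18 (adjusted p = 0.013), and Psme3ip1 did not pass, at 0.09 ± 0.19 and 0.24 ± 0.19.

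Several probe sets measured Psma3 (3 of them) and Psma5, Psmb3, Psmc1 and Psmd2 (2 each). On every one of them both antibody groups lay above PBS without overlap, with changes after anti-DCIR2-BDC of 0.68 to 0.81 for Psma3, 1.45 and 1.54 for Psma5, 1.28 and 1.20 for Psmb3, 1.51 and 1.24 for Psmc1, and 1.59 and 1.13 for Psmd2. After anti-DEC205-BDC the probe sets of Psmd2 differed most, at 1.12 and 0.63. Several proteasome genes have near-identical processed copies in the genome, and the signal of a probe set cannot be divided between a gene and such a copy.

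Of the 37 members that passed after anti-DCIR2-BDC, 27 passed in all 16 alternative analyses, and of the 27 that passed after anti-DEC205-BDC, 14 did. The 14 were Psma5, Psma6, Psma7, Psmb2, Psmb3, Psmb7, Psmc1, Psmd1, Psmd3, Psmd7, Psmd12, Psmd14, Psmg4 and Psme3. All 37 and all 27 kept their direction in each. Of the 37, 32 stayed past the threshold without anti-DCIR2-BDC replicate 1, 28 without replicate 2 of that group, and 33 and 35 without PBS replicate 1 and 2. Of the 27, 22 and 16 stayed without anti-DEC205-BDC replicate 1 and 2, 18 and 20 without PBS replicate 1 and 2, and 23 without either anti-DCIR2-BDC array, which enters through the shared variance.

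**Figure D3:**
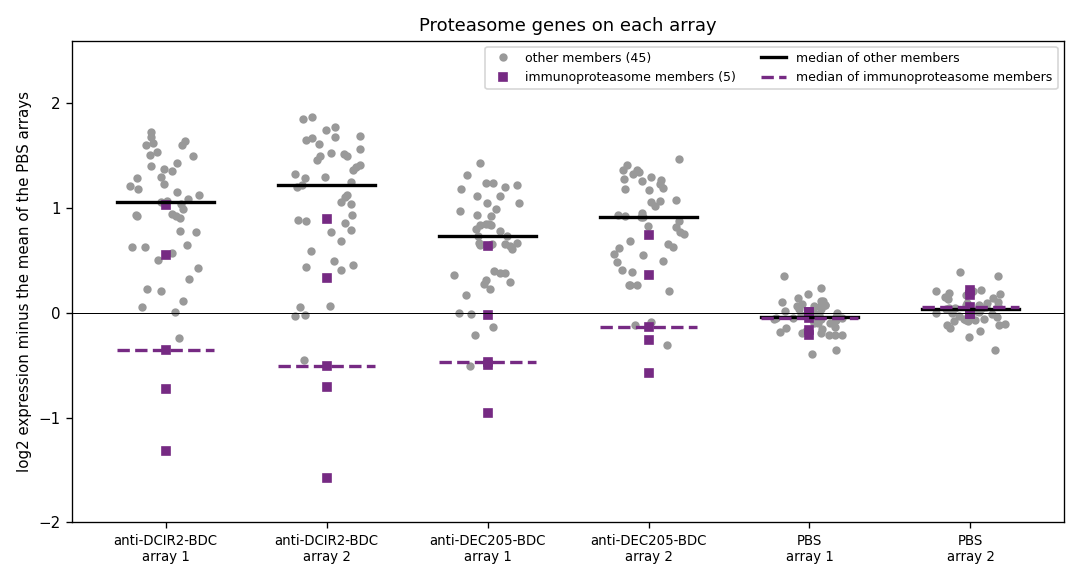
Log2 expression minus the mean of the PBS arrays (y axis) on each of the 6 arrays, for the 45 other members (grey, black line for their median) and the 5 immunoproteasome members (purple squares, dashed line for their median). Medians of the 45 were 1.06 and 1.22 on anti-DCIR2-BDC arrays and 0.73 and 0.91 on anti-DEC205-BDC arrays; those of the 5 were -0.35 and -0.50, and -0.47 and -0.14. The PBS arrays mirror each other since they are set against their own mean.

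Between the antibodies no member passed the test. Among all genes 0.0201% rose and 0% fell after anti-DCIR2-BDC relative to anti-DEC205-BDC, which is 4 and 0 genes, and 2036 genes had an unadjusted p below 0.05. Of the 50 members 13 had an unadjusted p below 0.05, 42 had a higher mean after anti-DCIR2-BDC, where 47.9% of all genes did, and 27 had arrays that did not overlap upwards, where 19.3% of all genes did. In 5 the arrays did not overlap downwards, where 20.9% of all genes did. The median difference was 0.29 over the 45 other members and -0.17 over the 5 immunoproteasome members, against -0.01 over all genes. The -0.17 depended on single arrays, at 0.012 without anti-DCIR2-BDC replicate 2, and -0.061 and -0.27 without anti-DEC205-BDC replicate 2 and 1.

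The largest difference between the antibodies was that of Psmg3, at 0.85 (95% interval 0.42 to 1.28, adjusted p = 0.21), from the array values given above. Psmf1 followed at 0.67 (0.17 to 1.16, adjusted p = 0.37), and Psmg1 at 0.62 (0.17 to 1.06, adjusted p = 0.35). The lowest was Psmb9, at -0.68 (-1.09 to -0.27, adjusted p = 0.25). These intervals leave 0 out for the single gene, while no adjusted p passed. For Psmb7 the difference was 0.11 (-0.27 to 0.50), for Psmc1 0.12 (-0.29 to 0.52) and for Psmc3 -0.00 (-0.41 to 0.41). At this number of arrays a true difference of 0 and others within these bounds cannot be told apart. By role, the 19S particle had a median difference of 0.39 over 17 genes, the 20S core 0.19 over 14 and the assembly chaperones 0.43 over 7.

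Genes that work with the proteasome were read from lists of its partners, of ubiquitin shuttles and of its regulators. Of all genes 10.1% rose after anti-DCIR2-BDC and 5.32% after anti-DEC205-BDC. Of 8 partners measured 4 rose in both comparisons. They were Txnl1, a thioredoxin-like protein on the cap (1.53 after anti-DCIR2-BDC and 1.27 after anti-DEC205-BDC), Usp14 and Uchl5, deubiquitinases on the cap (1.45 and 0.87, and 1.31 and 1.03), and Pomp, which matures the core (0.999 and 1.20). Of 10 ubiquitin shuttle and p97 genes 6 rose after anti-DCIR2-BDC and 3 after anti-DEC205-BDC. The p97 cofactor Nsfl1c changed by 1.33 and 0.93, the shuttle Rad23b by 1.26 and 0.72, and Vcp, which encodes the p97 unfoldase, by 0.997 and 0.75, all past the threshold. The shuttles Ubqln1 and Ubqln4 passed after anti-DCIR2-BDC (1.07 and 1.06). Uba6, a ubiquitin-activating enzyme and the only gene of its list measured here, rose by 1.39 ± 0.23 (adjusted p = 0.0019) and 0.94 ± 0.23 (adjusted p = 0.03).

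Nfe2l1, the transcription factor that drives proteasome genes when proteasome capacity is short, was among 8 regulators. It had 8.23 and 8.24 after anti-DCIR2-BDC, 8.21 and 8.28 after anti-DEC205-BDC and 7.31 and 7.55 in PBS arrays. The antibody groups lay close together above PBS, and Nfe2l1 rose by 0.80 ± 0.19 (adjusted p = 0.012) and 0.82 ± 0.19 (adjusted p = 0.022). Ngly1, the glycanase that processes Nfe2l1 protein into its active form, had 5.64 and 6.29, 6.65 and 6.89, and 7.24 and 7.44. It fell by 1.37 after anti-DCIR2-BDC (log2 change -1.37 ± 0.23, adjusted p = 0.0022), and its difference after anti-DEC205-BDC, -0.57 ± 0.23, did not pass (adjusted p = 0.19). The related factor Nfe2l2 differed by -0.41 ± 0.19 (adjusted p = 0.19) and -0.54 ± 0.19 (adjusted p = 0.12). The other regulators, Zfand5, Zfand2a and the NF-Y subunits, did not pass either.

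Of 10 measured genes of MHC class I processing 5 fell and 3 rose after anti-DCIR2-BDC, where 7.82% of all genes fell and 10.1% rose. After anti-DEC205-BDC 2 fell and 1 rose, where 3.53% of all genes fell and 5.32% rose. The class I genes H2-K1 and H2-D1 were also listed, but had only probe sets with several symbols and were not read. Tap1, the transporter gene beside Psmb9, had 7.69 and 7.70 after anti-DCIR2-BDC, 8.09 and 8.01 after anti-DEC205-BDC and 8.70 and 9.04 in PBS arrays. Like Psmb9, it stood in 3 separate steps, and it fell by 1.18 after anti-DCIR2-BDC (log2 change -1.18 ± 0.19, adjusted p = 0.00165) and by 0.82 after anti-DEC205-BDC (-0.82 ± 0.19, adjusted p = 0.024). Tapbp (tapasin), Tap2, Nlrc5 (the class I transactivator) and B2m (the class I light chain) fell after anti-DCIR2-BDC, with log2 changes of -1.16, -1.03, -0.86 and -0.68, and B2m also fell after anti-DEC205-BDC (-0.49). The risers were Canx, Pdia3 and Calr, chaperones of the endoplasmic reticulum that also fold other glycoproteins. Canx rose by 1.20 ± 0.14 (adjusted p = 0.00027) and 0.89 ± 0.14 (adjusted p = 0.0041).

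Of 9 genes of interferon gamma signalling 6 fell in both comparisons, Ifngr1, Ifngr2, Jak1, Stat2, Irf1 and Irf9. Among all genes 7.82% fell after anti-DCIR2-BDC and 3.53% after anti-DEC205-BDC. Irf1, a transcription factor that induces Psmb9 and Tap1, had 6.94 and 6.98 after anti-DCIR2-BDC, 7.80 and 7.79 after anti-DEC205-BDC and 8.67 and 8.62 in PBS arrays. Its groups formed 3 separate steps, at -1.69 ± 0.18 (adjusted p = 0.00015) and -0.85 ± 0.18 (adjusted p = 0.015). Between the antibodies no gene of this list, Irf1 included, passed. The receptor subunits Ifngr1 and Ifngr2 changed by -1.86 and -1.54 after anti-DCIR2-BDC and by -1.39 and -1.17 after anti-DEC205-BDC, and Stat2 by -1.45 and -0.90. Irf8, another factor of this family, rose by 1.82 ± 0.25 (adjusted p = 0.00057) and 1.70 ± 0.25 (adjusted p = 0.0027), and Jak2 rose by 0.73 and 0.65. The cytokine gene Ifng itself had 6.53 and 7.05, 6.63 and 6.07, and 6.21 and 5.21, and rose after anti-DCIR2-BDC (1.07 ± 0.32, adjusted p = 0.042) but overlapped PBS after anti-DEC205-BDC.

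**Figure D4:**
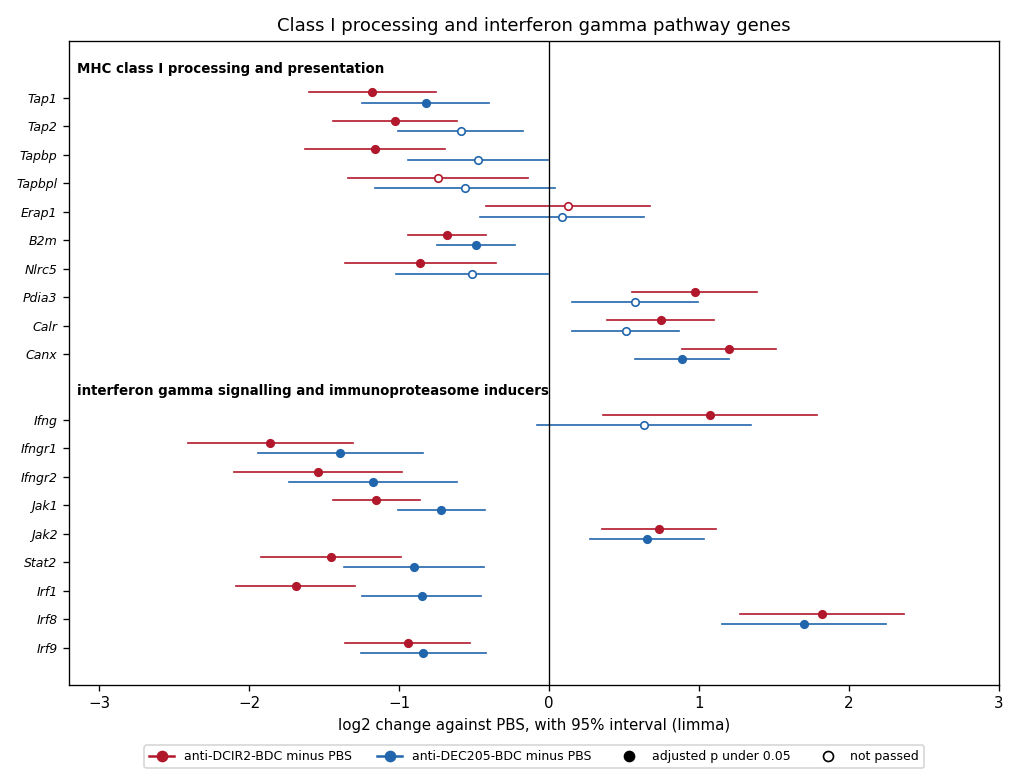
Log2 change against PBS (x axis) with 95% limma intervals of 10 genes of MHC class I processing and 9 of interferon gamma signalling, after anti-DCIR2-BDC (red, upper) and anti-DEC205-BDC (blue, lower); filled points passed an adjusted p of 0.05. Receptor, Jak1, Irf1 and peptide transporter genes lie left of 0, and Irf8, Jak2 and the chaperones of the endoplasmic reticulum right of it.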

How the data were processed

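Per array, 5 ng of RNA, isolated with PicoPure reagents, was amplified with a NuGen Ovation pico kit and labelled with biotin, per the labels' protocols. Such amplification can distort levels, mostly of dim genes. The authors deposited log2 expression per probe set, 1 column an array, made with RMA in Partek, per the submitters' processing notes, with no versions named there. Precision is set by having 2 arrays a group: 95% intervals of log2 changes had a median half-width of 0.388.

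Probe sets were named from the platform annotation, which gave 1 symbol to 21789 of 35556 probe sets, several to 1621 and none to 12146. Of the 21789, 21698 matched a RefSeq gene by Entrez identifier. The probe set with the highest mean was used for each of 999 genes with several, which left 19938 genes. All 6 arrays entered 1 limma fit (version 3.58.1, R 4.3.3) of group means with a variance trend. Its p-values are two-sided and adjusted by Benjamini-Hochberg across the 19938 genes. The code of the fit was run on simulated data with independent noise and few changed genes. That setting is simpler than these data, so it does not test the calls made here. A list was described by counts and its median, with no set test.

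The members and lists were chosen with earlier results of these data known. Values on every array are given for the immunoproteasome and its counterparts, Psme3, Psme4, Psmf1, Psmg1 to Psmg4 and the 3 members with the largest rise and fall in each comparison with PBS. In each role list the largest and smallest changes are named, and of each other list up to 4 genes, passing ones first. Other named genes complete a count or were chosen after their values were seen. RefSeq sequences matched 42 of 50 members. No pair of arrays had more than 22 equal values. The replicate number was not used as a block, as the labels do not say that same-numbered arrays share a mouse or day. Deviations of same-numbered arrays correlated at 0.145, 0.131 and 0.0714 between pairs of groups. The 16 alternatives left out each array in turn or changed the normalization, dim gene filter, variance model, weights, arrays in the fit, probe set rule or block.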

Additional observations from a re-analysis of the deposited data

How the results depend on the processing

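Without 1 array, members that rose numbered 27 to 36 after anti-DCIR2-BDC and 15 to 23 after anti-DEC205-BDC, members that fell 1 to 2 and 0 to 1, and all genes that passed 2090 to 3637 and 997 to 1367, with 0 to 27 between the antibodies. Immunoproteasome medians then ran from -0.67 to -0.35 after anti-DCIR2-BDC, from -0.47 to -0.14 after anti-DEC205-BDC and from -0.27 to 0.012 between the antibodies, and those of the other members from 1.06 to 1.22, 0.73 to 0.91 and 0.22 to 0.35. A second member, Psmb8, fell after anti-DCIR2-BDC, making 2, with quantile normalization, without the dimmest 30% or 50% of genes, with no trend, a robust trend, array weights, only the arrays compared or the mean of all probe sets. Genes that passed between the antibodies numbered 7 and 9 without the dimmest 30% and 50% and 0 with no trend. With the replicate number as a block, 2 members fell after anti-DCIR2-BDC, 36 rose after it and 28 after anti-DEC205-BDC, and 2 genes passed between the antibodies; the numbers are not known to pair arrays. In at least 1 setting the sign turned for 5 of the 13 members that had not passed after anti-DCIR2-BDC, 6 of 23 after anti-DEC205-BDC and 12 of 50 between the antibodies. Among them were Psme1 after anti-DEC205-BDC (-0.042 without PBS replicate 1 and -0.020 without anti-DEC205-BDC replicate 2, up to 0.39), Psmf1 (0.070 without PBS replicate 1, down to -0.40) and Psmg3 (-0.0071 without anti-DEC205-BDC replicate 2, up to 0.39) in that comparison, Psme4 after anti-DCIR2-BDC (0.068 without its replicate 1 and -0.24 without replicate 2), and, without anti-DCIR2-BDC replicate 2, Psmb10 (0.012, down to -0.35), Psmb7 (-0.048, up to 0.28) and Psme4 (-0.019, up to 0.29) between the antibodies. The causes of these turns were not tested. With 1 array left in a group, that array is assumed to vary like the others. Probe sets near background, such as those of Psma8 and Psmb11, limit what can be seen of dim genes.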
